A study of Mus musculus with 17 samples.

Results

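The tricarboxylic acid (TCA) cycle and its anaplerotic branches were followed through 9 nuclear genes, chosen by symbol, among 54456 gene symbols in the deposited tables. These were Pcx, Cs, Idh2, Idh3a, Ogdh, Sucla2, Mdh2, Glud1 and Pck2, and each of the 9 was among the 22733 genes that passed the filter on low counts. RNA had been sequenced from sorted mouse β cells in 17 libraries, whose summed estimated counts ranged from 47385513 to 82419400. Control β cells came from male tdTomato mice, in which RIP-Cre (Cre recombinase under the rat insulin promoter) switches on a Rosa26 tdTomato reporter, and knockout β cells came from male RIPCre+;Pcbp2Fl/Fl;Tdtomato mice, in which the same Cre also deletes Pcbp2, the gene of the poly(C)-binding protein PCBP2. Both genotypes therefore carried Cre and the reporter. Isolated islets of each genotype were cultured for 3 days at low (2.8 mM) or high (16.7 mM) glucose before tdTomato+ cells were sorted, giving 3 control libraries at low glucose, 4 control libraries at high glucose and 5 knockout libraries at each concentration. By the study's methods, islets for sequencing had first recovered at an intermediate glucose concentration, so both concentrations were a change from it. The age of the donor mice of these libraries was not given in the sources used here. The rat insulin promoter drives Cre in the β cells of the islet. Nothing in the labels says that replicates came from separate animals, and the p-values below measure the spread between these libraries.

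Pyruvate enters the cycle in more than one way. Pyruvate dehydrogenase makes acetyl-CoA, which citrate synthase (Cs) joins to oxaloacetate, and pyruvate carboxylase (Pcx) makes oxaloacetate directly and so refills the cycle, a reaction that is very active in β cells. Isocitrate is then oxidised by the NAD-linked enzyme with its catalytic subunit Idh3a or by the NADP-linked enzyme Idh2, Ogdh is the E1 subunit of the 2-oxoglutarate dehydrogenase complex, Sucla2 is the ATP-forming β subunit of succinyl-CoA ligase, and Mdh2 regenerates oxaloacetate. Glud1 (glutamate dehydrogenase) feeds 2-oxoglutarate in from glutamate, and Pck2 (mitochondrial phosphoenolpyruvate carboxykinase) takes oxaloacetate out as phosphoenolpyruvate.

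In the GRCm39 build (GENCODE M39 annotation) the genes lie on 7 chromosomes. Mdh2 is at chr5:135807292-135820882, Idh2 at chr7:79741431-79765535 on the minus strand, Idh3a at chr9:54493575-54514730, Cs at chr10:128172837-128198363, Ogdh at chr11:6241551-6309233 and Pcx at chr19:4559902-4672189. Glud1 (chr14:34032583-34067642), Pck2 (chr14:55777542-55788758) and Sucla2 (chr14:73762759-73834335) share chromosome 14. All except Idh2 are on the plus strand. Csl, a citrate synthase-like paralog that could share reads with Cs, had counts in 4 of the 17 libraries, at most 16, where Cs had at least 6247.

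The targeted gene followed the labels. Pcbp2 was at 50.7 to 73.4 CPM (counts scaled to library size, with factors from the trimmed mean of M values) in the control libraries at low glucose and 35 to 45.4 at high glucose, against 15.5 to 19.2 and 5.81 to 10 in the knockout libraries. All 10 β cell markers passed the filter, as did 1 of 6 acinar and 2 of 4 endothelial genes. So did 3 of 4 alpha cell genes and every delta, ductal, macrophage and stellate gene listed, so passing does not mark β cells. The β cell markers summed to 119000 to 123000 CPM in control and 67300 to 97400 in knockout libraries at low glucose. At high glucose they summed to 272000 to 526000 and 359000 to 475000. Stellate genes summed to at most 4.98 CPM. Alpha cell genes (4 listed, summed CPM), of which Gcg made up nearly the whole, were at 625 to 2540 in control and 1450 to 9160 in knockout cells at low glucose, against 260 to 1450 and 172 to 1300 at high glucose, so their sums were lower at high glucose in the knockout cells without overlap. Macrophage genes (4 listed) were at 18.1 to 65.3 and 26.1 to 152 at low glucose against 2.21 to 15.1 and 1.64 to 13.5 at high glucose, without overlap in either genotype. The delta cell genes (3 listed) were at 250 to 390 and 480 to 1320 at low glucose against 147 to 335 and 198 to 565 at high glucose, and Ppy, the pancreatic polypeptide gene, was at 797 to 834 and 992 to 5110 against 224 to 631 and 290 to 1140. The 3 ductal genes summed to as much as 801 CPM in a control library at high glucose. Spp1 made up nearly the whole of that group's sum, at a mean of 328 CPM against 0.933 for Krt19 and 3.47 for Cftr. Proliferation genes (6 listed) were at 3.99 to 5.93 and 4.06 to 12.8 at low glucose against 8.18 to 62.2 and 2.18 to 271 at high glucose. At low glucose the delta cell sums and Ppy were higher in knockout than in control libraries without overlap, while the alpha and macrophage sums overlapped. The part of these cells in the comparisons of glucose and of genotype below was not tested. Control library 4 and knockout libraries 4 and 5 at high glucose stood apart from the other high-glucose libraries on the first principal component (30% of the variance), at 9.9, 21.4 and 33.3 where the others were at 90.9 to 99.0, and results are also given without these 3 where a call depends on them. In bulk samples of sorted cells, fewer cells of a type and less RNA per cell cannot be told apart.

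Mdh2 and Idh2 were the most abundant of the 9 per length. In TPM (a level scaled by transcript length to a fixed total within each library), Mdh2 was at 288 ± 29.3 (SD, n = 3) and Idh2 at 260 ± 28.8 in control cells at low glucose, and their ranges overlapped. Pck2 (73.6 ± 4.36), Sucla2 (63.6 ± 4.50), Ogdh (58.5 ± 9.03), Pcx (57.8 ± 16.0) and Idh3a (50.3 ± 0.667) followed, then Cs (38.1 ± 3.19), and Glud1 (17.3 ± 11.9) was lowest. Among these neighbours the ranges of Sucla2 and Ogdh, of Ogdh and Pcx, and of Pcx and Idh3a overlapped, while the ranges of the other neighbours in this order did not. Knockout cells at low glucose kept Mdh2 (347 ± 49.2, n = 5) and Idh2 (302 ± 92.0) on top and Glud1 (35.8 ± 26.7) last, although there the range of Glud1, 12.6 to 69.8, overlapped that of Cs. At high glucose Ogdh stood behind Mdh2 and Idh2 alone in mean TPM in both genotypes, at 62.2 ± 7.88 in control (n = 4) and 52.5 ± 3.10 in knockout cells (n = 5), with ranges above those of the genes that followed it.

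As a share of the TPM of all 9 genes together, a measure taken within a library, Ogdh took a larger part at high glucose. Its mean share was 6.43% in control and 5.59% in knockout cells at low glucose and 14.4% and 12.9% at high glucose. Idh2 made up 28.6% and 29.2% at low glucose and 17% and 18.2% at high glucose. TPM cannot be compared between the glucose concentrations as levels per cell, because Ins2 alone took 19.5% to 33.5% of TPM at low glucose and 53.2% to 58.9% at high glucose.

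**Figure D1:**
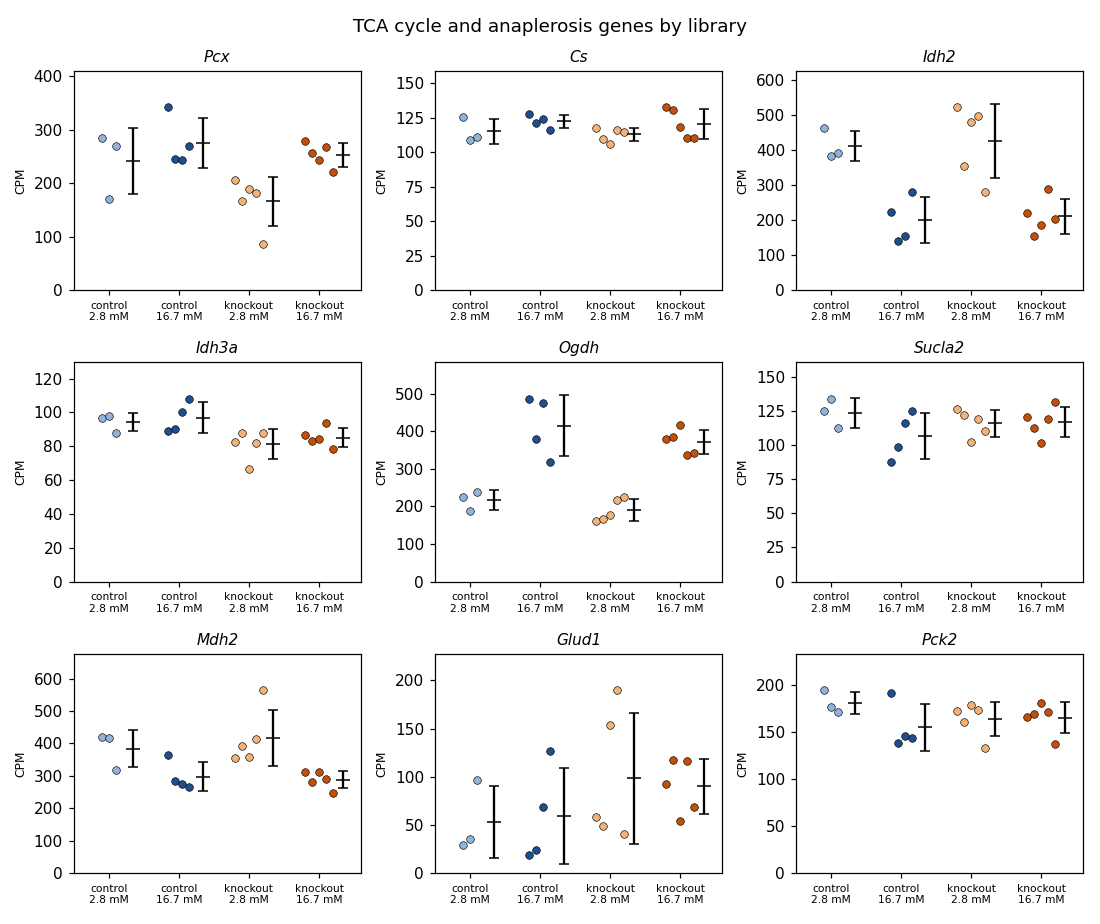
CPM (linear axes from 0) of the 9 genes in each of the 17 libraries, by genotype and glucose concentration; circles are libraries and the bar beside them is the mean ± SD of the group. Ogdh is higher and Idh2 lower at 16.7 mM glucose in both genotypes, and Glud1 spreads from 19.1 to 190 CPM.

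Glucose moved Ogdh up and Idh2 down by about the same factor in both genotypes. In control cells 2 of the 9 genes passed the test, 1 in each direction, where 7.16% of all tested genes were called higher and 6.7% lower at high glucose (edgeR quasi-likelihood test, called where the fold change exceeded 1.5 and the Benjamini-Hochberg adjusted p was below 0.05). In knockout cells 2 passed as higher and 1 as lower, where 13.5% of all genes were called higher and 10.5% lower. The median log2 fold change of the 9 genes was 0.04 in control and 0.01 in knockout cells, beside 0.04 and 0.01 over all tested genes. The other genes, apart from Ogdh, Idh2 and Pcx, were called in neither genotype.

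Ogdh, whose complex carries out the oxidative decarboxylation of 2-oxoglutarate and is a rate-controlling point of the cycle, was at 226, 187 and 240 CPM in the control libraries at low glucose and at 486, 379, 476 and 318 CPM at high glucose. In the knockout libraries it was at 162, 168, 177, 217 and 225 CPM at low glucose and at 380, 384, 416, 336 and 341 CPM at high glucose. No low-glucose library reached the lowest high-glucose library in either genotype. The rise was 1.91-fold in control cells (log2 0.93 ± 0.17 SE, adjusted p = 0.00197 by edgeR) and 1.96-fold in knockout cells (log2 0.97 ± 0.14, adjusted p = 6.42e-05). Scaled to total counts alone, with no correction for the insulin transcripts, the rise of Ogdh was log2 0.52 (adjusted p = 0.0211) and 0.48 (adjusted p = 0.00583) and fell short of the fold threshold, beside a median over all genes of -0.346 and -0.465. Within a library, the log2 ratio of Ogdh to Cs counts, a comparison chosen after the values were seen and given without a test, was 0.78 to 1.11 in control and 0.46 to 0.97 in knockout cells at low glucose, and 1.45 to 1.94 and 1.52 to 1.81 at high glucose.

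Idh2 makes NADPH in the mitochondrial matrix. Its control libraries were at 463, 382 and 391 CPM at low glucose and at 223, 141, 155 and 281 CPM at high glucose, with no overlap. Its knockout libraries were at 523, 354, 480, 497 and 279 CPM at low glucose and at 219, 156, 185, 290 and 203 CPM at high glucose, and here the groups overlapped, since low-glucose library 5 was below high-glucose library 4. Idh2 fell by 1.04 ± 0.25 on the log2 scale in control cells (adjusted p = 0.00981, edgeR) and by 1.02 ± 0.21 in knockout cells (adjusted p = 0.0014). The high-glucose libraries 4 of both genotypes, which stood apart on the first principal component, held the highest Idh2 of their groups. Without the 3 libraries that stood apart the log2 fold change of Idh2 was -1.27 in control and -1.23 in knockout cells, and that of Ogdh was 1.02 and 1.01.

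Pcx, the main anaplerotic entry, was called in knockout cells and not in control cells. In the knockout libraries it was at 205, 167, 190, 181 and 86.1 CPM at low glucose and at 278, 256, 243, 267 and 220 CPM at high glucose, without overlap, a 1.52-fold rise (log2 0.61 ± 0.20, adjusted p = 0.024, edgeR). The control libraries were at 284, 170 and 270 CPM and at 342, 245, 243 and 270 CPM, with overlap and log2 0.19 ± 0.24 (adjusted p = 0.656). The difference between these responses, tested as an interaction, was log2 0.42 ± 0.30 (adjusted p = 1), so the response of Pcx was not shown to differ between genotypes. The call in knockout cells was close to the fold threshold: it was lost without low-glucose knockout library 5 (log2 0.45, adjusted p = 0.0325), without high-glucose knockout library 1 (log2 0.57, adjusted p = 0.055), without the 3 libraries that stood apart (log2 0.60, adjusted p = 0.0614) and on total counts (log2 0.12, adjusted p = 0.648).

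Mdh2, which closes the cycle and also serves the malate-aspartate shuttle, passed the adjusted p in knockout cells but not the fold threshold. It was at 354, 394, 360, 413 and 564 CPM at low glucose and at 312, 281, 313, 290 and 247 CPM at high glucose in knockout cells, where the groups did not overlap (log2 -0.53 ± 0.14, adjusted p = 0.00823, edgeR). In control cells it was at 419, 416 and 318 CPM at low glucose and at 366, 284, 275 and 267 CPM at high glucose, with overlap (log2 -0.37 ± 0.17, adjusted p = 0.156). On total counts Mdh2 was called lower in both genotypes (log2 -0.77 and -1.02).

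Cs, Idh3a, Sucla2 and Pck2 were not called in either glucose comparison. Cs had the narrowest range of the 4, from 106 to 133 CPM over all 17 libraries, and its log2 fold change was 0.09 ± 0.11 in control and 0.09 ± 0.09 in knockout cells. Idh3a ranged from 66.4 to 108 CPM (log2 0.04 ± 0.12 and 0.07 ± 0.10), Sucla2 from 87.7 to 134 CPM (log2 -0.21 ± 0.14 and 0.01 ± 0.11) and Pck2 from 133 to 194 CPM (log2 -0.22 ± 0.14 and 0.01 ± 0.12). On total counts Pck2 was called lower in control cells (log2 -0.62). A value of 0 for these genes lies within 2 SE of each estimate.

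Glud1 varied more within groups than between them. The control libraries were at 28.9, 35.1 and 96.4 CPM at low glucose and at 19.1, 24.0, 68.1 and 127 CPM at high glucose. The knockout libraries were at 58.7, 49.0, 153, 190 and 40.8 CPM at low glucose and at 92.8, 118, 54.2, 116 and 68.8 CPM at high glucose. The highest and lowest libraries of a group differed 2.18-fold in knockout cells at high glucose and 3.34-fold to 6.66-fold in the other groups. The SE of its log2 fold change was 0.62 in control and 0.52 in knockout cells, several times that of Cs.

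**Figure D2:**
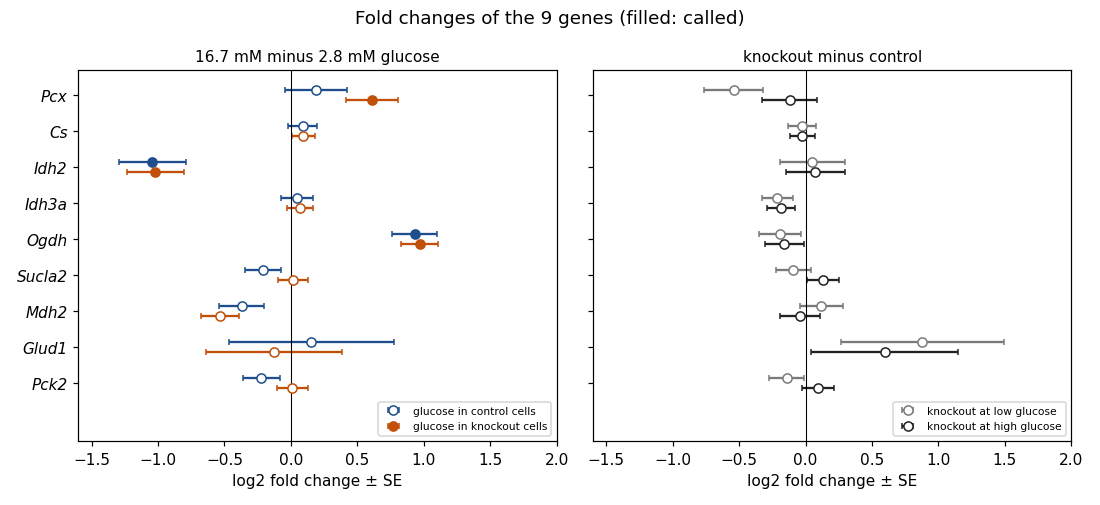
Log2 fold change ± SE of the 9 genes with glucose in each genotype (left) and with the knockout at each glucose concentration (right), from one edgeR fit of 17 libraries; filled circles are called. Ogdh and Idh2 are filled in both genotypes and Pcx in knockout cells, and no circle in the right panel is filled.

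Loss of Pcbp2 left all 9 genes uncalled. At high glucose 0 of 9 passed, where 0.29% of all genes were called higher and 1.42% lower in the knockout, and 0 of 9 had an unadjusted p under 0.05 (edgeR). At low glucose 0 of 9 passed, where 0.255% were called higher and 1.79% lower, and 1 of the genes, Pcx, had an unadjusted p under 0.05 by edgeR (log2 -0.54 ± 0.22, adjusted p = 0.289). DESeq2 also called 0 of 9 at either concentration. The estimates for Ogdh were -0.16 ± 0.15 at high and -0.20 ± 0.16 at low glucose, those for Idh3a were -0.19 ± 0.11 and -0.21 ± 0.12, and those for Idh2 were 0.07 ± 0.22 and 0.05 ± 0.24. At low glucose Idh3a was at 88.0 to 97.8 CPM in control and 66.4 to 87.8 CPM in knockout libraries, ranges that all but touched, and was not called. Cs was at -0.02 ± 0.09 and -0.03 ± 0.10. Glud1 had the widest estimates, 0.60 ± 0.55 and 0.88 ± 0.61. Both comparisons use the same libraries as the glucose comparisons and are not independent of them.

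No gene of the 9 was called for the interaction of genotype and glucose, where 0.0044% of all genes were called higher and 0% lower (edgeR), and 0 of 9 had an unadjusted p under 0.05. DESeq2 also called 0 of 9. The interaction estimates were 0.04 ± 0.22 for Ogdh, 0.02 ± 0.33 for Idh2 and -0.28 ± 0.81 for Glud1.

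Over the 17 libraries, Idh2 and Ogdh ran opposite to each other (Pearson r = -0.865 on log2 CPM, n = 17), a description in which the points share the glucose grouping. The genes of at least 5 CPM on average whose pattern was most like that of Ogdh were Gbf1 (r = 0.986), Vcp (0.976) and Surf4 (0.974), out of 10009. For Idh2 they were Trpm2 (0.970), Sgf29 (0.959) and Ift172 (0.957), and for Pcx they were Abat (0.959), Pcdhga6 (0.942) and Adam9 (0.929).

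Comparisons within a library do not depend on how libraries are scaled to each other, and 3 pairs of genes were compared in this way by exact permutation tests (two-sided, 4 comparisons per pair, adjusted over 12). Sucla2 and Suclg2 encode the ATP-forming and GTP-forming β subunits of succinyl-CoA ligase. The log2 ratio of Sucla2 to Suclg2 counts was -0.06, -0.13 and -0.06 in control libraries at low glucose and 1.14, 1.12, 1.07 and 0.41 at high glucose. In knockout libraries it was 0.39, -0.19, 0.40, 0.45 and 0.69 at low glucose and 1.46, 1.22, 1.39, 0.71 and 1.78 at high glucose, and the highest low-glucose knockout library (0.69) was just under the lowest high-glucose one (0.71). The exact permutation test gave a difference of 0.97 in knockout cells (p = 0.00794, the smallest possible with 5 and 5 libraries, adjusted p = 0.0317) and 1.02 in control cells (p = 0.0571, adjusted p = 0.137). The control libraries did not overlap between the concentrations, and 3 and 4 libraries allow no p below 0.0286 by this test. Adjusted over 12, it had little room to pass in control cells, so that result does not show a change in knockout cells alone. Of the pair, Suclg2 was called: it fell by 1.16 ± 0.29 on the log2 scale in control cells (adjusted p = 0.0106, edgeR) and by 0.96 ± 0.24 in knockout cells (adjusted p = 0.00538). Sucla2 was not called.

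The ratio of Idh2 to Idh3a sets the NADP-linked enzyme against 1 subunit of the NAD-linked enzyme, with the retained-intron RNA of Idh3a included. Idh3b, another subunit, fell with glucose from a mean of 169 to 80.2 CPM in control and 167 to 77.9 in knockout cells. Idh2 fell from 412 to 200 and from 427 to 210, so the ratio does not stand for the NAD-linked enzyme as a whole. The ratio of Idh2 to Idh3a was 1.97 to 2.26 in control libraries at low glucose and 0.62 to 1.38 at high glucose. It was 1.67 to 2.86 and 0.91 to 1.63 in knockout libraries. The difference was -1.08 in knockout cells (exact permutation p = 0.00794, adjusted p = 0.0317) and -1.14 in control cells (exact permutation p = 0.0286, the smallest that 3 and 4 libraries allow, adjusted p = 0.0857). The ratio of Pcx to Cs, the anaplerotic against the condensing entry, was 0.65 to 1.28 and 0.97 to 1.42 in control libraries and -0.41 to 0.84 and 0.97 to 1.27 in knockout libraries at low and high glucose. It differed by 0.575 in knockout cells (exact permutation p = 0.00794, adjusted p = 0.0317) and by 0.12 in control cells (exact permutation p = 0.6, adjusted p = 0.6). None of the 6 comparisons of knockout with control cells passed, with adjusted p from 0.25 to 0.519 by exact permutation. Leaving out the 3 libraries that stood apart left differences of 1.01, -1.23 and 0.53 in knockout cells, none with an adjusted p under 0.05 at that number of libraries (0.214 for each, exact permutation). With 1 library left out, Sucla2 to Suclg2 lost its call whichever of the 10 knockout libraries it was (adjusted exact permutation p = 0.0635 to 0.0857). Idh2 to Idh3a and Pcx to Cs lost theirs without any 1 of the high-glucose knockout libraries (0.0686 to 0.0857) and kept it without any 1 at low glucose (0.0476).

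**Figure D3:**
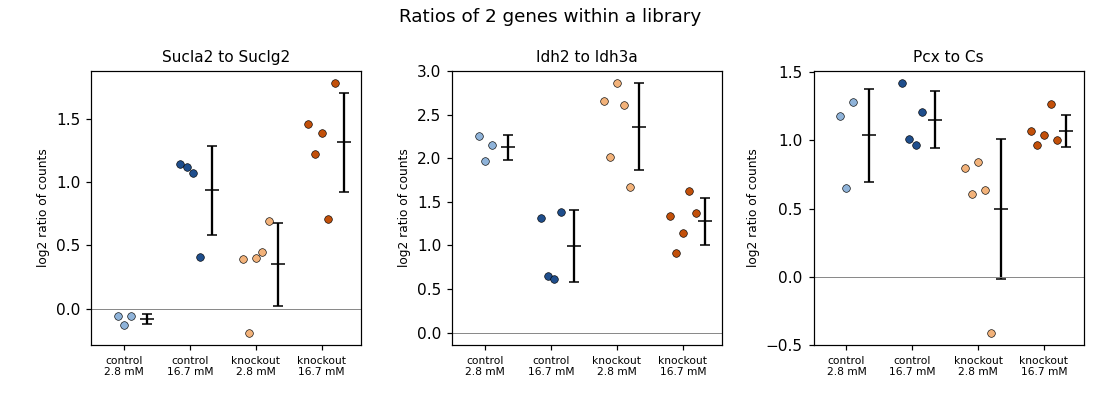
Log2 ratio of the estimated counts of 2 genes within each library, by genotype and glucose concentration, with the mean ± SD of each group beside the circles. Sucla2 to Suclg2 is higher and Idh2 to Idh3a lower at 16.7 mM glucose in both genotypes, and Pcx to Cs is lowest in a knockout library at 2.8 mM (-0.41).

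The 51 other genes of the pathway, all of them tested, are given in 3 lists, to be read beside the 7.16% of all genes called higher and 6.7% called lower with glucose in control cells and the 13.5% and 10.5% in knockout cells. Of 12 other enzymes of the cycle, 1 was called higher and 2 lower with glucose in control cells, and 1 higher and 3 lower in knockout cells. Fh1 (fumarase) rose by log2 1.87 ± 0.28 in control (adjusted p = 0.000682, edgeR) and 1.57 ± 0.23 in knockout cells (adjusted p = 6.71e-05), from a mean of 116 to 424 CPM and from 105 to 310 CPM. Idh3b, a regulatory subunit of the NAD-linked isocitrate dehydrogenase, fell by 1.08 ± 0.14 and 1.10 ± 0.11 on the log2 scale. Its catalytic partner Idh3a was not called. Most of the Idh3a TPM (59.6% to 73.3%) was in retained-intron transcripts, so the gene values do not compare 2 coding messages. Sdha (succinate dehydrogenase) fell by 0.67 ± 0.11 in knockout cells, and in control cells it was at log2 -0.55 ± 0.13 (adjusted p = 0.0098, edgeR), short of the fold threshold alone. The median log2 fold change of the list was -0.04 in control and 0.07 in knockout cells, beside 0.04 and 0.01 over all genes.

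Of 14 genes at the entry of pyruvate, 1 was called higher in control cells and 2 higher and 1 lower in knockout cells. Pdk3 rose by log2 0.67 ± 0.20 and 0.84 ± 0.17, Pdk1 rose by 0.78 ± 0.25 in knockout cells (control 0.31 ± 0.30, not called), and Pdk4 fell by 2.95 ± 0.71 in knockout cells, from a mean of 8.05 to 1.04 CPM (control -1.55 ± 0.80, not called). These are kinases that phosphorylate and inactivate pyruvate dehydrogenase. Of 25 linked enzymes and carriers, 4 were called higher and 1 lower in control cells and 5 higher and 1 lower in knockout cells. Acly (ATP-citrate lyase) rose by log2 0.95 ± 0.20 and 1.37 ± 0.16, Idh1 (cytosolic NADP-linked isocitrate dehydrogenase) by 1.09 ± 0.15 and 1.59 ± 0.12 and Mdh1 (cytosolic malate dehydrogenase) by 0.75 ± 0.23 and 0.74 ± 0.19. Got1, the cytosolic aspartate aminotransferase, fell by 0.66 ± 0.21 and 0.87 ± 0.18. Slc25a22, a mitochondrial glutamate carrier, rose in control cells (0.75 ± 0.20), and in knockout cells it was at 0.56 ± 0.16 (adjusted p = 0.0123, edgeR) and 1.48-fold, just under the fold threshold. Me3 (1.11 ± 0.40, a gene below 5 CPM on average in each group) and Nnt (1.03 ± 0.29) rose in knockout cells, and were at 1.01 ± 0.49 and 0.56 ± 0.34 in control cells, not called. The median of this list was 0.19 in control and 0.33 in knockout cells, beside 0.04 and 0.01 over all genes. None of the 51 was called for the interaction of genotype and glucose (edgeR), where 2 of them, both linked enzymes or carriers, had an unadjusted p under 0.05.

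**Figure D4:**
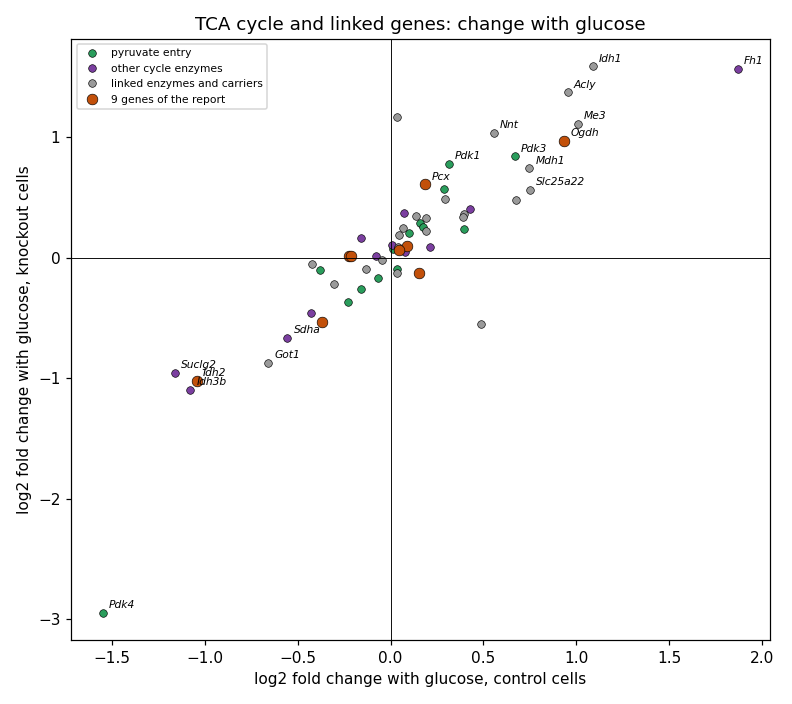
Log2 fold change with glucose in control cells (horizontal) against knockout cells (vertical) for the 9 genes and the 51 others of the pathway; genes called in either genotype are labelled, and the 2 comparisons share no library. Fh1, at 1.87 and 1.57, is farthest to the right, and Suclg2, Idh3b and Idh2 lie together near -1 on both axes.

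With the knockout, 1 of the 12 other cycle enzymes was called, the same one at each concentration, and 1 of the 25 linked genes was called at low glucose, each of them lower, where 1.79% of all genes were called lower and 0.255% higher at low glucose and 1.42% and 0.29% at high glucose. Ogdhl, which encodes a paralog of Ogdh that can serve as E1 subunit of the same kind of complex, was at 264, 207 and 280 CPM in control libraries at low glucose and 103, 154, 97.6, 89.1 and 67.6 CPM in knockout libraries. At high glucose it was at 241, 203, 265 and 189 CPM in control and 111, 112, 94.2, 134 and 122 CPM in knockout libraries. Its log2 fold change was -1.29 ± 0.20 at low (adjusted p = 0.000899, edgeR) and -0.97 ± 0.19 at high glucose (adjusted p = 0.00794), and the knockout and control libraries did not overlap. Ogdh itself was not called with the knockout. Nnt, the mitochondrial NADP transhydrogenase, was at a mean of 78.2 CPM in control and 30.5 CPM in knockout libraries at low glucose (log2 -1.36 ± 0.32, adjusted p = 0.029). At high glucose Nnt was at a mean of 115 CPM in control and 62.4 CPM in knockout libraries, without overlap but not called. Its symbol covers more than 1 gene identifier in the files, so these values depend on summing by symbol. Any part of the strain background in the difference of Nnt between genotypes was not tested. None of the 14 genes at the entry of pyruvate was called with the knockout.

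The transcripts behind each gene differ in how far they can be read as protein-coding message. Cs-201 took 97.8% to 99.4% of the TPM of Cs, Mdh2-201 took 90.3% to 95.2% of that of Mdh2, and Pcx-204 took 76.5% to 91.5% of that of Pcx. For Idh3a the retained-intron transcripts took 59.6% to 73.3% over the 17 libraries, with the protein-coding ones at 23.0% to 34.4%, and for Pck2 retained-intron transcripts took 39.0% to 52.5%. The gene values of these 2 genes therefore sum coding and retained-intron RNA. Idh2-201, the main coding transcript of Idh2, was at 86.4% to 90.5% in control and 86.4% to 91.4% in knockout libraries at low glucose and at 82.1% to 86.0% and 81.4% to 87.3% at high glucose, with overlap in the knockout cells. Sucla2 was divided between Sucla2-203 (50.1% to 82.2%) and Sucla2-201 (15.5% to 47.9%), with wide spread inside each group.

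Ogdh is read from transcripts that differ in which of 2 neighbouring exons they hold, and the share of these forms is described here after its values were seen, with no test. In GENCODE M39 Ogdh-201 and Ogdh-204 share an exon at chr11:6266978-6267080 (103 bases) that Ogdh-202 and Ogdh-203 lack, and Ogdh-202 and Ogdh-203 share an exon at chr11:6266765-6266855 (91 bases) that the former lack. Both are shown because they tell the forms apart, on the plus strand of GRCm39, with the exon in capitals and 20 bases of intron on each side in lower case. Each exon follows an AG and precedes a GT.
Exon of Ogdh-202 and Ogdh-203: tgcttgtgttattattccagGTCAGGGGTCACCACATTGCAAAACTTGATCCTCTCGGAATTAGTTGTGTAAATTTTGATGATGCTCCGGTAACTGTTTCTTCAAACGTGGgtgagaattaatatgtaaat
Exon of Ogdh-201 and Ogdh-204: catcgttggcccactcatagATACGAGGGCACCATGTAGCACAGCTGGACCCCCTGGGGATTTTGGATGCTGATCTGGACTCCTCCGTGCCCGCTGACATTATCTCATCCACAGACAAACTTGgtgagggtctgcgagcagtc
The first is 42.9% G and C and the second 54.4%.

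Ogdh-202 took 23.4%, 27.7% and 19.7% of the TPM of Ogdh in the control libraries at low glucose and 24.6%, 20.5%, 21.5% and 26.2% at high glucose. In the knockout libraries it took 28.1%, 29.6%, 27.8%, 26.7% and 42.1% at low glucose and 28.4%, 33.0%, 31.2%, 27.9% and 29.6% at high glucose. The genotypes overlapped at low glucose and did not overlap at high glucose, where the gap was between 26.2% and 27.9%. Computed over Ogdh-201 to Ogdh-204 alone, or with Ogdh-203 added to Ogdh-202, the shares again overlapped at low glucose and not at high glucose (33.7% against 34.7% for the latter). Among 11611 transcripts with a mean share of 10% to 90% in genes of at least 5 TPM, every knockout library was above every control library in 2.63% at low glucose and in 1.25% at high glucose. Ogdh-202 also has a first exon of its own in the annotation, and the use of that exon and of the 91-base exon cannot be told apart in these tables. The transcripts of 13 genes were looked at before these were chosen, and 3 ways to compute the share were tried. The annotation release behind the files differs from M39.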

How the data were processed

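The authors pseudoaligned 150-nt read pairs to the mouse GRCm39 transcriptome with kallisto (named with edgeR in the submitters' processing notes) and deposited, per library, estimated counts and TPM for 142376 transcripts. The version and annotation release are not given in the sources used here. Estimated counts were summed per gene symbol (54456) and rounded. Genes were filtered by edgeR's filterByExpr on the 4 groups (22733 kept), scaled by TMM (factors 0.752 to 1.29) and fitted with edgeR 4.0.16 (R 4.3.3), quasi-likelihood, 4 group means over 17 libraries. A gene was called at a Benjamini-Hochberg adjusted p under 0.05 over all genes and a fold change over 1.5. The SE of a log2 fold change was derived from the test, as the absolute log2 fold change over the square root of the F statistic. CPM uses the TMM factors. The authors' deposited TPM was summed per gene and used for levels and transcript shares, which have no test. Ratios within a library used exact permutation tests (scipy 1.17.1). These tests treat the libraries as unpaired, and no alternative that pairs libraries by replicate number was run for the ratios. The study's batch factor has no levels in the sources used here and was not fitted.

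The 9 genes, the pathway and marker lists and the tests were chosen with earlier results of these data known. All 9 genes are described, with called genes of the pathway lists (up to 8 per list) and Suclg2, and, for each called member, the 3 genes with the highest correlation. Counts were first summed per gene identifier (55357, of which 22784 were tested) and then per symbol, after the first results had been seen, because the genes are chosen by symbol; both were run. DESeq2 1.42.0, other scalings, no filter, a replicate block and left-out libraries were alternatives. The code was tested on simulated counts with 200 changed genes. Deviations of same-numbered libraries from their group means correlated above a limit of 0.1 in every pair between the 2 control groups (r = 0.124 to 0.259, 3 pairs). Between the 2 knockout groups they ran from 0.067 to 0.193 (5 pairs), and between genotypes from 0.047 to 0.355 at high glucose (4 pairs) and 0.047 to 0.245 at low glucose (3 pairs). The labels do not say what a number marks.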

Additional observations from a re-analysis of the deposited data

Results flagged for a closer look

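Gaps between a library and the rest of its group were looked for in 27 groups of 4 or 5 libraries (9 genes in 3 groups), and 4 stood out. Chance alone marks about 1 in 20 such groups. Mdh2 was highest in control high-glucose library 1 at 366 CPM, where the nearest library was at 284 CPM, and Pck2 was highest in the same library at 191 CPM, where the nearest was at 146 CPM. Mdh2 was also highest in knockout low-glucose library 5 at 564 CPM, above the next at 413 CPM, and that library also held the lowest Pcx. Idh3a was lowest in knockout low-glucose library 3 at 66.4 CPM, below the next at 81.6 CPM. The causes were not tested.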

How the results depend on the processing

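Between 2 and 3 of the 9 genes were called with glucose in each genotype under every alternative, and 0 in the other comparisons, but on total counts these were in part other genes: Idh2, Mdh2 and Pck2 in control and Idh2 and Mdh2 in knockout cells, all lower, with Ogdh and Pcx no longer called. Without the 3 libraries that stood apart, or without knockout low-glucose library 5 or high-glucose library 1, Pcx was not called. Scaling by DESeq2 size factors, DESeq2, no filter and counts per gene identifier changed no call among the 9. Counts per gene identifier were the first grouping and became an unplanned alternative after results had been seen. On total counts the median log2 fold change of all genes moved to -0.346 in control and -0.465 in knockout cells, and genes called with glucose split 781 higher to 4053 lower and 1484 to 6364, where the reported fit had 1627 to 1523 and 3060 to 2376. Directions of uncalled genes then turned: with glucose Pcx -0.211, Cs -0.3, Idh3a -0.328 and Glud1 -0.146 in control cells and Cs -0.392, Idh3a -0.408, Sucla2 -0.458 and Pck2 -0.474 in knockout cells, with the knockout at low glucose Cs 0.09 and Sucla2 0.025, and for the interaction Cs -0.092, Idh2 -0.09, Idh3a -0.081 and Ogdh -0.043. With the replicate block, no call among the 9 genes changed, and the estimates that turned were Glud1 -0.324 and 0.279 (glucose in control and knockout cells), Pcx 0.025 (knockout at high glucose), Cs 0.006 and Idh2 -0.029 (knockout at low glucose), and Cs -0.02 and Glud1 0.603 (interaction). Without the 3 libraries that stood apart they were Idh3a -0.034 and Glud1 -0.557 (glucose in control cells), Sucla2 -0.095 (glucose in knockout cells), Cs 0.027 (knockout at high glucose), and Ogdh -0.006 and Glud1 0.359 (interaction). DESeq2 size factors and its Wald test gave Cs -0.007 for the interaction.

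With one library left out at a time, ranges that crossed 0 were, with glucose in control cells, Pcx -0.014 to 0.319, Idh3a -0.004 to 0.082 and Glud1 -0.508 to 0.897, and in knockout cells Glud1 -0.323 to 0.254, Pck2 -0.053 to 0.072 and Sucla2 -0.033 to 0.06. With the knockout at high glucose they were Pcx -0.175 to 0, Cs -0.062 to 0.007, Idh2 -0.069 to 0.268 and Mdh2 -0.108 to 0.069, and at low glucose Cs -0.069 to 0.038, Idh2 -0.034 to 0.169 and Mdh2 -0.017 to 0.185. For the interaction they were Cs -0.06 to 0.046, Idh2 -0.119 to 0.217, Idh3a -0.04 to 0.072, Ogdh -0.09 to 0.135 and Glud1 -1.023 to 0.383. Of the called genes, Ogdh stayed within 0.83 to 1.06 in control and 0.92 to 1.04 in knockout cells, and Pcx in knockout cells ran from 0.445 to 0.697. Idh2 ran from -1.236 to -0.908 in control cells, with an adjusted p of up to 0.0465 (edgeR), close to the limit. In knockout cells Idh2 ran from -1.162 to -0.928.

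Of the ratios in knockout cells with glucose, Sucla2 to Suclg2 from TPM was 0.945 (adjusted exact permutation p = 0.0635), and without the libraries that stood apart the 3 ratios were 1.01, -1.233 and 0.531. One library at a time, they ran from 0.83 to 1.115, -1.256 to -0.96 and 0.348 to 0.66, and Sucla2 to Suclg2 lost its call in all 10 runs. Pcx to Cs crossed 0 with glucose in control cells (-0.076 to 0.242) and with the knockout at high glucose (-0.146 to 0.005).

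Over all genes, called counts (higher, lower) that differed by more than 1.5 times were, for glucose in control cells, 2327 and 2442 with the block and 2270 and 2629 without the libraries apart. For the knockout at high glucose (66 and 322 reported) they were 221 and 505 by DESeq2, 123 and 417 unfiltered, 194 and 386 with the block and 238 and 351 without the libraries apart, and at low glucose (58 and 407) 211 and 623 by DESeq2, 106 and 493 with the block, and 131 and 542 without the libraries apart. For the interaction (1 and 0) they were 27 and 7, 12 and 2, and 10 and 3 by DESeq2, unfiltered and with the block, 2 and 0 without the libraries apart, and 0 to 2 higher and 0 lower with 1 library left out (0 without control low-glucose library 3). Leaving out 1 library at a time gave 690 to 2214 higher and 694 to 2261 lower for glucose in control cells, 27 to 201 and 186 to 453 for the knockout at high glucose, and 17 to 80 and 226 to 452 at low glucose. The causes were not tested.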
